A study of Homo sapiens with 9 samples.

Results

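The genes described here are the MYC, MAX and MXD network: MYC, MYCN and MYCL, the shared partner MAX, the antagonists MXD1, MXD3, MXD4, MXI1 and MNT, and MLX, the partner of a parallel branch. They were chosen by name, as 10 listed symbols, and taken from probe sets that the platform annotation gives to 1 symbol alone. Such a probe set was found for 9 of the 10, each gene having 1, among 22465 genes measured in this way. The probe set listed for MXD4 also names MIR4800, so MXD4 has no value of its own here. Of the 9, 6 had a group mean above the background level of 56.5 intensity units (5.82 on the log2 scale), which is the 95th percentile of 23 background probe sets, and so did 10062 of all genes.

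MYC proteins are transcription factors that bind the DNA word CACGTG, the E-box, only as dimers with MAX, and they drive genes of growth, nucleotide synthesis and ribosome production. MXD1, MXD3, MXD4, MXI1 and MNT compete for MAX and for the same DNA word, and recruit the SIN3 histone deacetylase corepressor. MLX pairs with the glucose-sensing factors MondoA and ChREBP and also with some MXD proteins and MNT. Myc genes are drivers of neuroblastoma, a tumour of the sympathetic nervous system, and the phosphatase PP2A takes part in the turnover of the MYC protein by removing a phosphate that protects it from degradation.

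Total RNA of 9 samples of cells labelled SH-SY5Y, a human neuroblastoma line known to carry no amplified MYCN, was hybridised to arrays. The groups were untreated cells (0 nM), cells given 20 nM okadaic acid and cells given 60 nM okadaic acid, with 3 arrays each, an exposure of 12 h, and the same medium in all groups. Okadaic acid is a marine toxin that inhibits phosphatases of the PP2A and PP1 type. The cells were grown with 10% FBS and exposed with 4% FBS. For the highest dose the labels conflict: a treatment field names 20 nM, whereas the sample source and the dose code of the design name 60 nM, which was used here. SH-SY5Y is 1 subcloned line, so nothing here speaks to other lines.

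Array medians lay between 4.36 and 4.51 on the log2 scale, and arrays of a group correlated at a mean of 0.996 or more across genes. Untreated replicate 3 and 20 nM replicate 2 had the lowest such means of their groups. Separate cultures are not named for the arrays, although they are called biological replicates. The p-values thus rest on the spread of these 9 samples alone, and their number limits the precision. Of 9 measured markers of noradrenergic neuroblastoma, GATA2 and GATA3 were above background, while TH, DBH, PHOX2A, HAND2, ISL1, CHGA and CHGB were not in any group. Most of these markers go against a noradrenergic identity of the cells labelled SH-SY5Y, and the identity of the cells was not tested further. Of 6 mesenchymal type markers 5 were above background in each group, and the summed intensity of the 6 was 5389 to 5953 in untreated arrays, 5960.4 to 6331 at 20 nM and 7339 to 8167 at 60 nM. At 60 nM against untreated cells CD44 (1.04), SNAI2 (0.81) and FN1 (0.52) rose, as log2 differences by limma. PRRX1, below background, was called lower (-0.32), and VIM (0.19) and YAP1 (-0.26) were not called. Of the noradrenergic markers GATA2 (0.37) and ISL1 (0.47, below background) were called higher and GATA3 (-0.23) lower. The part of these markers in the results was not tested. Of 4 epithelial markers, the keratins KRT8 and KRT18 were above background, while EPCAM and CDH1 were not in any group. None of 3 glial, 3 leukocyte and 5 fibroblast markers was above background. In RNA of whole cultures, fewer cells of a type and less RNA per cell cannot be told apart.

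At 60 nM the antagonist MXD1 and, by less, MYC and MAX were higher than in untreated cells, and MLX was lower. MXD1 rose most, by 2.84 on the log2 scale (SE 0.11, 3 arrays a group), MYC rose by 0.69 (SE 0.09) and MAX by 0.23 (SE 0.06), while MLX fell by 0.81 (SE 0.13). These 4 of 9 members passed the test at 60 nM against untreated cells, where 21.2% of all genes were called. The test was limma with Benjamini-Hochberg adjusted p under 0.05 over all 22465 genes. All 4 were above background, and of all genes above background 14.9% were called higher and 26.1% lower. The same 4 members had groups that did not overlap, as had 33.3% of all genes. MYCN, MYCL, MXD3, MXI1 and MNT did not pass it. At 20 nM none of the 9 was called by limma, against 0.0223% of all genes, and 1 of them, MYC, had an unadjusted p under 0.05, as had 4.98% of all genes. MYC and MXD1, 2 of 9, had groups that did not overlap at 20 nM, as had 6.01% of all genes. Between 60 nM and 20 nM, MXD1 and MYC were higher and MLX lower, 3 of 9 members where 17.8% of all genes were called. These 3 and MAX had groups that did not overlap between the doses, as had 31.2% of all genes. By limma's F test over the 3 groups MXD1, MYC and MLX were called, against 18.5% of all genes.

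**Figure D1:**
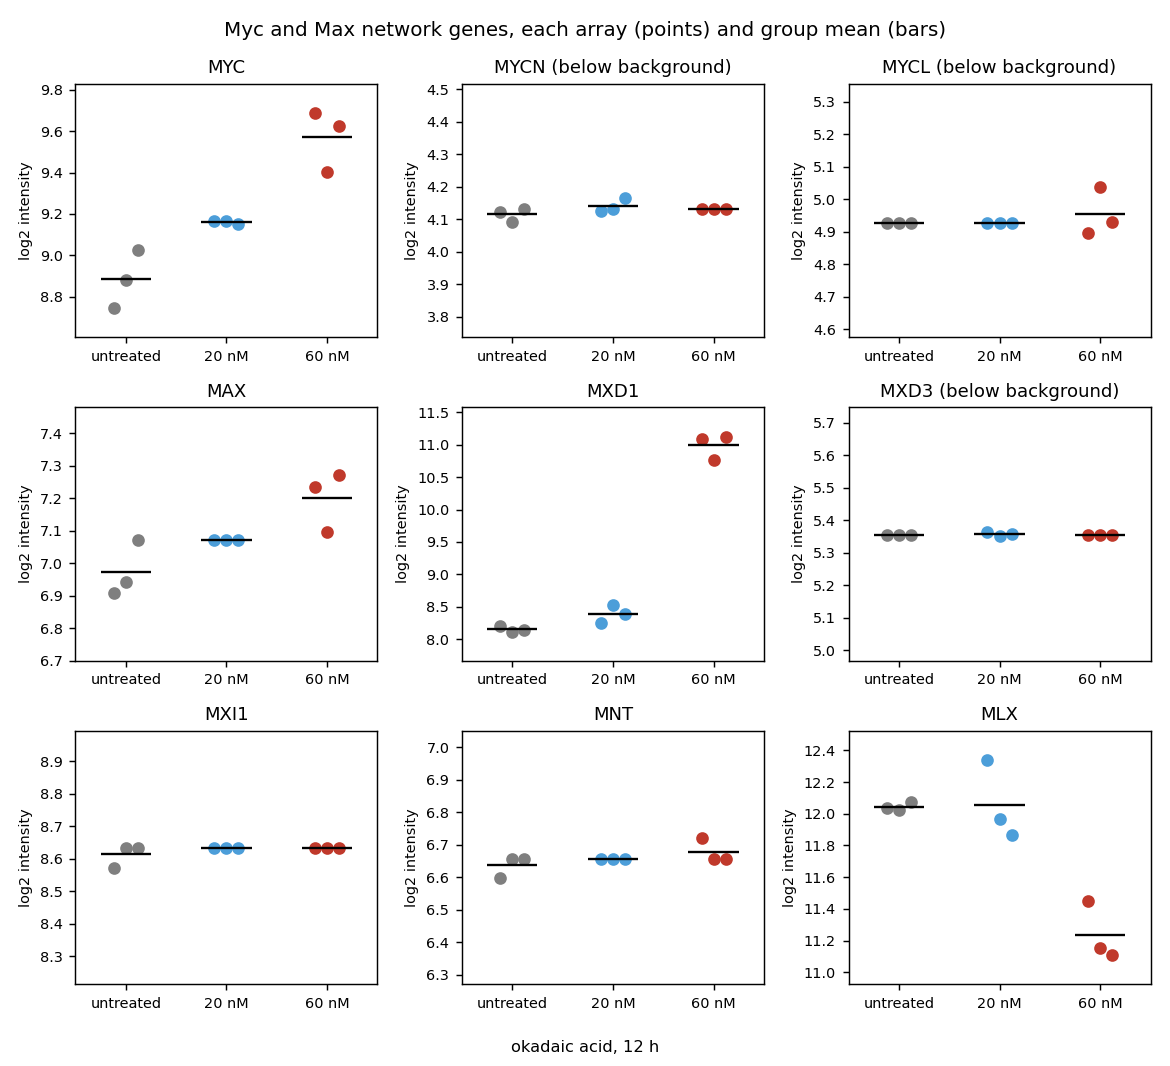
Log2 intensity (vertical axes, each of its own range) of the 9 measured network genes on every array, by okadaic acid dose (horizontal axes), with points for arrays and bars for group means of 3. MXD1 at 60 nM stands at 10.77 to 11.13 against 8.12 to 8.21 in untreated arrays, MLX at 60 nM below all other arrays, and MYC at 60 nM above all other arrays.

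MYC is the family member that most proliferating cells use. Its intensity was 429, 471 and 521 in the 3 untreated arrays, 574, 575 and 568 at 20 nM and 826, 677 and 790.3 at 60 nM. All 3 groups were apart, with every array at a higher dose above every array at a lower one, as the plot of levels by dose shows. At 60 nM its mean log2 intensity was 9.57 ± 0.15, against 8.88 ± 0.14 in untreated cells (SD, n = 3 each), a fold of 1.61 with a limma adjusted p of 0.00159. At 20 nM the log2 difference from untreated cells was 0.28 (SE 0.09, 95% interval 0.07 to 0.49), with a limma adjusted p of 0.809. At 60 nM MYC was 1.33-fold higher than at 20 nM (log2 difference 0.41, SE 0.09, limma adjusted p = 0.0191). That last call was lost without any 1 of the 3 arrays at 20 nM, without 60 nM replicate 1 or without 60 nM replicate 3, with adjusted p of 0.0536 to 0.0691. It was also lost after a shift of the arrays by their spiked hybridisation controls, which moved the median of all genes by -0.28 between the doses and left MYC at 0.13.

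MYCN, the member amplified in aggressive neuroblastoma, and MYCL, first known from lung cancer, were below background on all 9 arrays. MYCN lay between 17.04 and 17.9 intensity units over the 9 arrays. MYCL lay between 29.7 and 32.8, with all 6 arrays of untreated and 20 nM cells at 30.4. The groups overlapped for both, and the log2 difference at 60 nM against untreated cells was 0.02 for MYCN (95% interval -0.03 to 0.06) and 0.03 for MYCL (-0.06 to 0.11). At a level below background these values do not show whether either gene changed.

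MAX is the shared partner of MYC and the MXD proteins. Its intensity was 120.1, 123 and 134 in untreated arrays, 134 on each array at 20 nM, and 150.4, 137 and 154 at 60 nM. The 60 nM arrays were above all untreated ones, and 4 of the 9 arrays held exactly the same value. The mean log2 intensity was 7.20 ± 0.09 at 60 nM and 6.97 ± 0.09 in untreated cells (SD, n = 3 each, log2 difference 0.23, limma adjusted p = 0.0267). The call was lost without untreated replicate 1 or 2 or without 60 nM replicate 1 or 3 (differences of 0.19 to 0.21, adjusted p of 0.0786 to 0.0921) and with equal array medians (0.18, adjusted p = 0.129). It was lost at an almost equal difference in the fit of the 6 arrays compared (0.23, adjusted p = 0.0978) and after the hybridisation control shift (0.24, adjusted p = 0.984), and with the chromosome score described with MLX the difference was 0.36 (adjusted p = 0.00313). At 20 nM the difference from untreated cells was 0.10 (95% interval -0.03 to 0.23). Between 60 nM and 20 nM it was 0.13 (limma adjusted p = 0.190).

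MXD1 encodes the MAX partner first described as MAD1, which is induced when cells such as myeloid cells and keratinocytes differentiate. Its intensity was 296, 278 and 282 in untreated arrays, 305, 368 and 334 at 20 nM and 2179, 1747 and 2237 at 60 nM. The lowest array at 60 nM was thus above all arrays of the other groups, and the arrays at 20 nM were all above the untreated ones. At 60 nM the mean log2 intensity was 10.996 ± 0.20, against 8.16 ± 0.05 in untreated cells (SD, n = 3 each), a fold of 7.16 with a 95% interval of the log2 difference of 2.59 to 3.09 and a limma adjusted p of 8.43e-06. Ranked by log2 difference, MXD1 was number 35 from the top of the 22465 genes. The difference between 60 nM and 20 nM was nearly as large, at 2.61 (SE 0.11, 6.10-fold, limma adjusted p = 1.95e-05). At 20 nM against untreated cells it was 0.23 (95% interval -0.02 to 0.48, limma adjusted p = 1). Both calls of MXD1 held under all 21 alternatives run.

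The other antagonists with a value did not pass the test at either dose, as the plot of log2 differences with their intervals shows. MXI1 had 381, 397 and 397 intensity units in untreated arrays and 397 on all 6 treated arrays, and its log2 difference at 60 nM against untreated cells was 0.02 (95% interval -0.03 to 0.07). MNT, the most widely expressed antagonist of MYC, had 96.9, 101 and 101 in untreated arrays, 101 on all 3 arrays at 20 nM and 106, 101 and 101 at 60 nM (log2 difference at 60 nM 0.04, 95% interval -0.02 to 0.10). MXD3, which is linked to the S phase of proliferating progenitors, was below background, at 40.8 to 41.2 over the 9 arrays. Exactly repeated values were the rule for these genes: 8 of 9 arrays were equal for MXI1, 7 for MNT and 6 for MXD3. Of all genes, 12346 had 3 or more arrays at 1 value, to 8 significant digits of the log2 intensity. Intervals of genes with such repeats may be too narrow. The probe set that MXD4 shares with MIR4800 gave 149.7, 149.7 and 191 intensity units in untreated arrays, 149.7, 157 and 147 at 20 nM and 149.7, 132 and 140.3 at 60 nM. The groups overlapped, and the set was left out of the test.

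MLX is the MAX-like partner of MondoA and ChREBP. Its intensity was 4198, 4169.6 and 4308 in untreated arrays, 5173, 3999 and 3740.4 at 20 nM and 2793, 2275 and 2208 at 60 nM. The arrays at 60 nM lay below all others, and those at 20 nM spread to either side of the untreated ones. The mean log2 intensity was 11.24 ± 0.18 at 60 nM and 12.04 ± 0.02 in untreated cells (SD, n = 3 each), so that MLX fell to 0.571 of the untreated level (95% interval of the log2 difference -1.12 to -0.49, limma adjusted p = 0.00470). Against 20 nM it was lower by a like amount at 60 nM (log2 difference -0.82, SE 0.13, limma adjusted p = 0.00562), while 20 nM against untreated cells gave 0.01 (95% interval -0.30 to 0.33). MLX lies on chromosome 17, where 187 of 551 genes above background fell at 60 nM (33.9%) and 67 rose (12.2%), against 26.1% and 14.9% of all genes above background. Of the 551, 50 had a difference at least as low as that of MLX, itself included. Arrays differed in the level of gene-dense against gene-poor chromosomes, with a score of -0.10 to -0.03 at 60 nM and -0.01 to 0.12 in untreated arrays. When the score entered the fit, an alternative added once the data were known, the MLX difference was -0.67 and its call was lost (adjusted p = 0.0851). The score was made from these same intensities, with chromosome 17 among its gene-dense chromosomes, and every array at 60 nM scored below every untreated one. For 60 nM, dose and score thus cannot be told apart in any fit with the score, for MLX or for other genes.

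**Figure D2:**
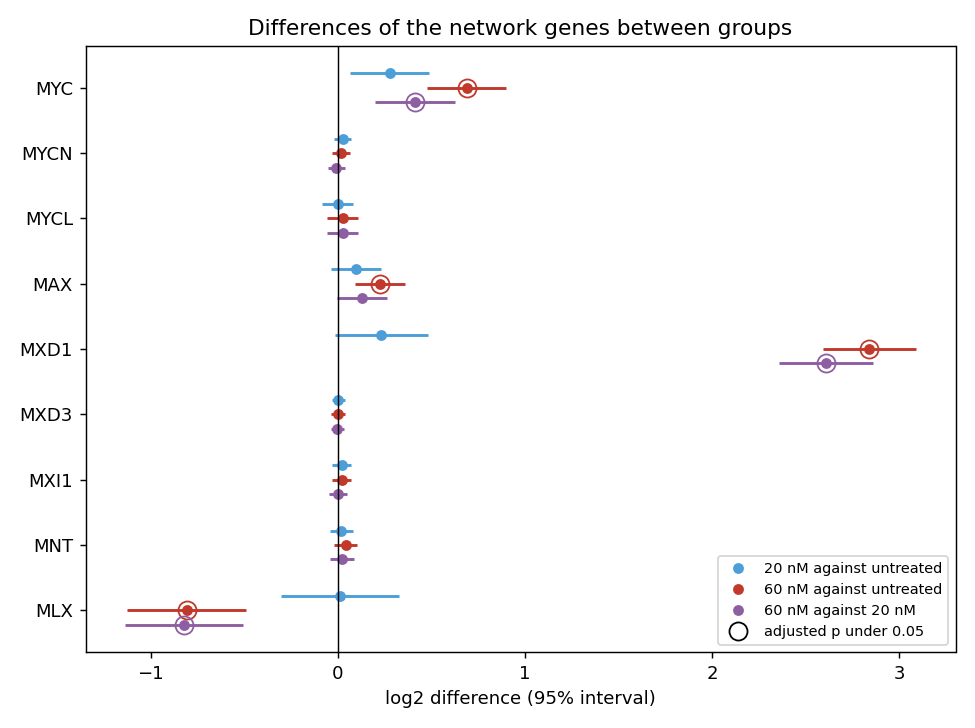
Log2 differences of the 9 network genes (horizontal axis) with 95% intervals from limma, for 20 nM against untreated, 60 nM against untreated and 60 nM against 20 nM; open rings mark adjusted p under 0.05. MXD1 lies at 2.84 and 2.61 for the comparisons of 60 nM, MLX at -0.81 and -0.82, and no difference at 20 nM is ringed.

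**Figure D3:**
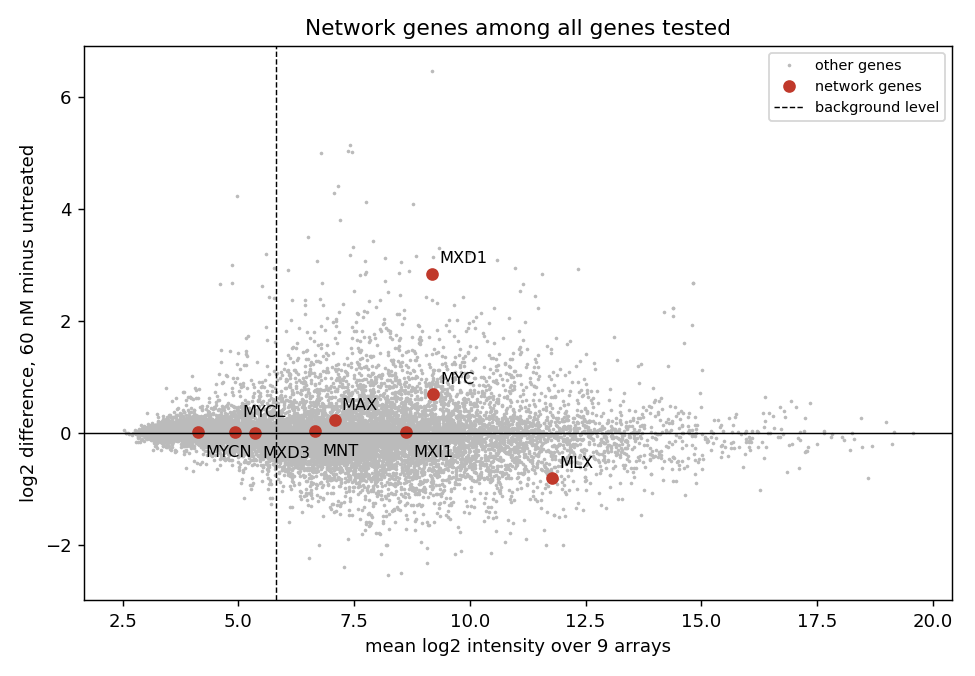
Log2 difference of 60 nM minus untreated (vertical axis) against mean log2 intensity over 9 arrays (horizontal axis) for 22465 genes in grey, with the 9 network genes in red and the background level of 5.82 dashed. MXD1 stands at 2.84, above nearly all genes of its intensity, while MYC, MAX and MLX lie among the other genes.

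The starts of the 2 members that moved most in opposite directions, and of MNT, which did not pass the test, are shown for their E-boxes, the network's own binding word. Promoters were taken from RefSeq on build GRCh38.p14 as the 250 bases before an annotated start, written 5′ to 3′ on the gene's strand. Such windows were found for 9 of the 10 genes, 12 windows in all, MYC not being among them. The words searched on both strands were CACGTG (E-box), GGGCGG (GC box, bound by SP1 family factors), CCAAT (bound by NF-Y), TGANTCA (AP-1) and TGACGTCA (bound by CREB), and a match describes letters and not binding. The MXD1 window (chr2:69914859-69915108, plus strand) held no E-box, with GC boxes at 123 and 53 bases before the start and CCAAT boxes at 141 and 100, all in capitals. The MLX window (chr17:42566850-42567099, plus strand) held 1 E-box, in capitals, that begins 50 bases before the start, besides a GC box at 12 and a CCAAT box at 66 left in lower case. For MNT, on the minus strand, 60 bases around its E-box at 193 bases before the start are given (chr17:2401221-2401280), with the E-box in capitals. A GC box at 168 in this stretch was left in lower case.
MXD1: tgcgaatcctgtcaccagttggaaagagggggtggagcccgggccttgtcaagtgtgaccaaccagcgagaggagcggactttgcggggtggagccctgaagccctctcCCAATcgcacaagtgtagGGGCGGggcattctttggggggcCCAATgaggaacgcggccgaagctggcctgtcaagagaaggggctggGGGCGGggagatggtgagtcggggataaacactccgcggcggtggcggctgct
MLX: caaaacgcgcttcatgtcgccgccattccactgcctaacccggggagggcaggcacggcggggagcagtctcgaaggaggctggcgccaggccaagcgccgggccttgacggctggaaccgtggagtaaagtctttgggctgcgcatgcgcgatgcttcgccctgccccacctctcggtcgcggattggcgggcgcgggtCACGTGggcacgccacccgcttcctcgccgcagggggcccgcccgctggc
MNT: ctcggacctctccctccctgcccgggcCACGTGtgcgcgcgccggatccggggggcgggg

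An E-box was thus found at the starts of MLX, MNT and MXD4, which is 3 of the 12 windows, where 6.34% of 35116 human promoter windows of the same length held it. GC boxes were in 11 of the 12 windows (91.7%) and in 42.6% of all windows, and CCAAT boxes in 4 of the 12 (33.3%) and in 32.0% of all. Windows of 1 gene are not independent, and these shares were not tested. The AP-1 word, in 6.57% of all windows, was found among the members at MXD3 alone, and the CREB word, in 1.65%, at none. MXD1, which rose, had no E-box in its window, and MLX, which fell, and MNT, which did not pass the test, each had 1. MAX, which was called higher, had none, nor had MYCN, MYCL, MXD3 and MXI1, which did not pass the test. MYC has no window, and a link between the E-box and the change was not tested.

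The other partners of MLX and MAX did not pass the test at 60 nM. MLXIP, which encodes MondoA, was at 0.09 (SE 0.04, limma adjusted p = 0.167) at 60 nM against untreated cells, MGA, a MAX partner that also carries a T-box, at -0.10 (SE 0.14), and MLXIPL, which encodes ChREBP, was below background. TXNIP, a target of MondoA and MLX that restrains glucose uptake, fell to 5.87 ± 0.12 at 60 nM, just above background, against 7.06 ± 0.30 in untreated cells (log2 difference -1.19, SE 0.14, limma adjusted p = 0.000953). ARRDC4, another MondoA target, was at -0.21 (SE 0.06, limma adjusted p = 0.0519), and was called with quantile normalization (adjusted p = 0.0304) and among genes above background (0.0313). In all, 1 of 5 genes of this arm fell and none rose, where 26.1% of all genes above background fell and 14.9% rose.

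Of 10 coactivators and cofactors of MYC, 4 fell at 60 nM and none rose, with a list median of -0.31 where the median of all genes above background was -0.04. At 60 nM 7.94% of all genes rose and 13.2% fell, and of genes above background 14.9% rose and 26.1% fell. HCFC1, a chromatin cofactor that MYC binds, fell by 0.81 (SE 0.16, limma adjusted p = 0.00886), RUVBL1, an ATPase of chromatin remodellers, by 0.63 (SE 0.11), and EP400, the remodeller of the TIP60 complex, by 0.56 (SE 0.08, limma adjusted p = 0.00305). The fourth was TRRAP, the scaffold through which MYC recruits histone acetyltransferases, at -0.36 (SE 0.09, limma adjusted p = 0.0274), named after its value was seen. With the chromosome score HCFC1 was at -0.46 and TRRAP at -0.19, both no longer called (adjusted p of 0.106 and 0.386), and RUVBL1 at -0.37, still called. The call of TRRAP was lost under 9 of 21 alternatives in all (adjusted p up to 0.472), among them 5 of the arrays left out, and that of EP400 after the hybridisation control shift at an almost equal difference (-0.55, adjusted p = 0.0691).

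The SIN3 corepressor that MXD proteins recruit held both directions, with 5 of 9 measured genes lower and 2 higher. Among all genes above background 26.1% fell and 14.9% rose. SAP30, a subunit that bridges SIN3 to other factors, rose to 12.33 ± 0.06 at 60 nM, against 10.93 ± 0.04 in untreated cells (log2 difference 1.40, SE 0.14, limma adjusted p = 0.000510), or by 0.90 over the mean of its probe sets, still called. SAP18 rose by 0.51 (SE 0.04), a call lost after the hybridisation control shift at an almost equal difference (0.52, adjusted p = 0.0998). RBBP4, a histone-binding subunit, fell by 0.89 (SE 0.05, limma adjusted p = 5.57e-05). SIN3A, to which MXD1 binds, was lower by 0.61 (SE 0.07, limma adjusted p = 0.000632), named after its value was seen. The list median was -0.22.

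Of 21 measured genes that act on MYC protein turnover, 4 rose and 5 fell, against 14.9% and 26.1% of all genes above background. Their median was -0.05. PLK1, a mitotic kinase that stabilises MYC family proteins, rose by 1.13 (SE 0.11, limma adjusted p = 0.000374) and AURKA, which shields MYCN from degradation, by 0.84 (SE 0.07). The ubiquitin ligase HUWE1 fell by 0.64 (SE 0.08, limma adjusted p = 0.00130). FBXW7, the ligase that recognises phosphorylated MYC, rose by 0.63 (SE 0.10, limma adjusted p = 0.00445). This call was lost with the chromosome score (0.59, adjusted p = 0.0683), and FBXW7 was named after its value was seen.

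Of 10 measured genes that act on MYC transcription or mRNA, 3 rose and 3 fell at 60 nM. The shares of all genes above background were 14.9% and 26.1%. HEXIM1, which holds the elongation kinase P-TEFb inactive, rose by 2.96 (SE 0.05, limma adjusted p = 4.75e-07), and it was the only gene of the 8 lists called at 20 nM (0.76, SE 0.05, limma adjusted p = 0.00744). The call at 20 nM was lost under 8 of 21 alternatives (adjusted p of 0.0577 to 0.107): the replicate block, equal array medians, without untreated replicate 1 or 2, without any 1 of the arrays at 20 nM, and without untreated replicate 3 and 20 nM replicate 2 together. The difference ranged from 0.73 to 1.05, and the 3 arrays at 20 nM held 1 repeated value. ZFP36, or tristetraprolin, which speeds the decay of AU-rich mRNAs, reached 6.58 ± 0.50 at 60 nM, against 3.90 ± 0.18 in untreated cells, where it was below background. Set against the background level it was at least 1.70-fold higher at 60 nM, a bound that was not tested. The limma adjusted p of ZFP36, 0.000340, belongs to the full log2 difference of 2.69, which uses untreated values below background. CCNT1, the cyclin of P-TEFb, fell by 0.48 (SE 0.07), a call lost after the hybridisation control shift at an almost equal difference (-0.47, adjusted p = 0.168).

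Among 27 measured genes that MYC is known to activate, 5 rose and 10 fell at 60 nM, with a list median of -0.08. The shares of all genes above background were 14.9% and 26.1%. CAD, which starts pyrimidine synthesis, fell to 6.89 ± 0.08 at 60 nM, against 8.67 ± 0.26 in untreated cells (log2 difference -1.78, SE 0.14, limma adjusted p = 0.000142). The cyclin-dependent kinase gene CDK4 fell by 0.89 (SE 0.12) and TFAP4, a transcription factor gene, by 0.81 (SE 0.08). TFRC, the transferrin receptor, rose by 0.77 (SE 0.07, limma adjusted p = 0.000232).

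Of 12 measured genes that MYC or MYCN is known to repress, 6 rose and 1 fell at 60 nM, with a median of 0.47. The shares of all genes above background were 14.9% and 26.1%. NDRG1, named for its repression by N-myc, rose to 10.07 ± 0.10 at 60 nM, against 8.65 ± 0.14 in untreated cells (log2 difference 1.42, SE 0.08, limma adjusted p = 4.29e-05). GADD45A, a stress gene, rose by 1.11 (SE 0.09). CDKN1A, which encodes p21 and holds cells in G1, rose by 0.94 (SE 0.06, limma adjusted p = 5.46e-05). NGFR, a neurotrophin receptor, had a mean of 5.89 at 60 nM, with 2 of 3 arrays above background, against 4.94 in untreated cells, below it. Set against the background level it was at least 1.05-fold higher, a bound that was not tested. Its limma adjusted p of 5.21e-05 belongs to the full log2 difference of 0.95, which uses untreated values below background. The gene that fell was NDRG2, at -0.34 (SE 0.06, limma adjusted p = 0.00463), named after its value was seen. That call was lost after the hybridisation control shift at an almost equal difference (adjusted p = 0.536), and the difference was -0.20 with the chromosome score. The list counts are descriptions, and were not tested as sets.

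**Figure D4:**
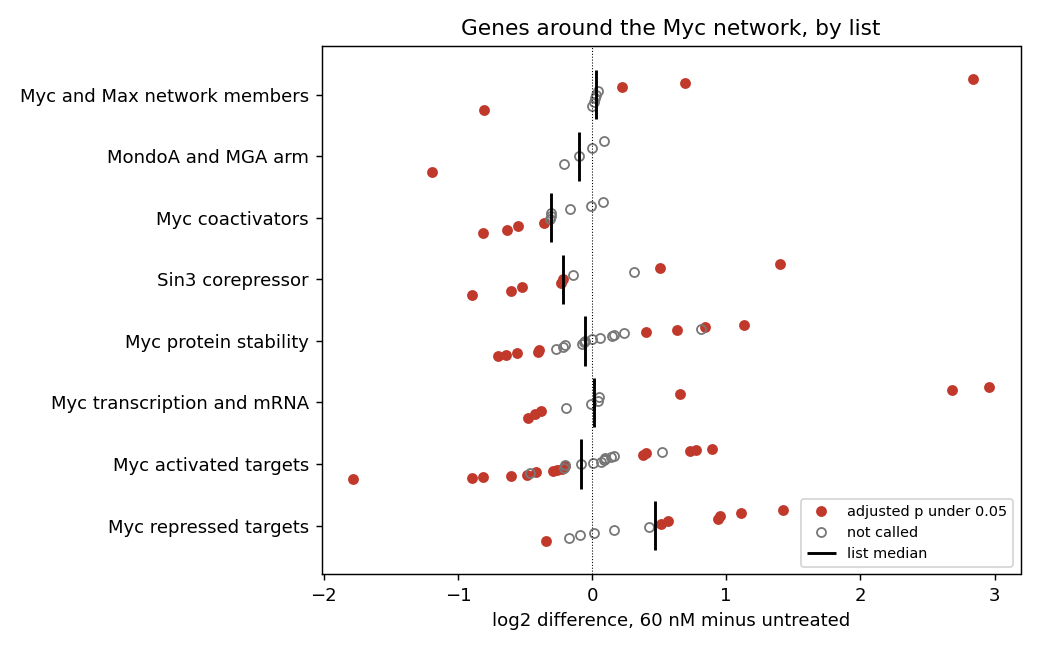
Log2 difference of 60 nM minus untreated (horizontal axis) of the measured genes of 8 lists around the Myc network (rows), with filled points for adjusted p under 0.05, open points for genes not called and a black line at each list's median. The median of the MYC-repressed list stands at 0.47 and that of the activated list at -0.08.

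The genes whose level over the 9 arrays most resembled that of MYC, by the root mean square difference of log2 profiles after subtracting each gene's mean, were ETV4 (0.03), an ETS transcription factor below background on all untreated and 20 nM arrays, JMJD6 (0.05), a nuclear oxygenase, and INTS15 (0.06), a subunit of the Integrator complex, out of 10056 genes above background in at least 1 group. JMJD6 had 137, 147 and 167 intensity units in untreated arrays, 180.5, 180.5 and 174 at 20 nM and 285, 214 and 256 at 60 nM. For ETV4 and TEX14 the likeness rests on values below background on 6 of the 9 arrays. For MXD1 the closest were INTS6L (0.12), related to a subunit of Integrator, TEX14 (0.12), a gene of germ cell bridges that was below background on all untreated and 20 nM arrays, and ERRFI1 (0.12), an inhibitor of the EGF receptor. ERRFI1 had 1345, 1430.3 and 1482 intensity units in untreated arrays, 1851, 1950.1 and 1822 at 20 nM and 11021, 9267 and 10149.7 at 60 nM. The arrays at 60 nM were far above the others for each of these 3 genes, which follows from their choice by likeness to MXD1.

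**Figure D5:**
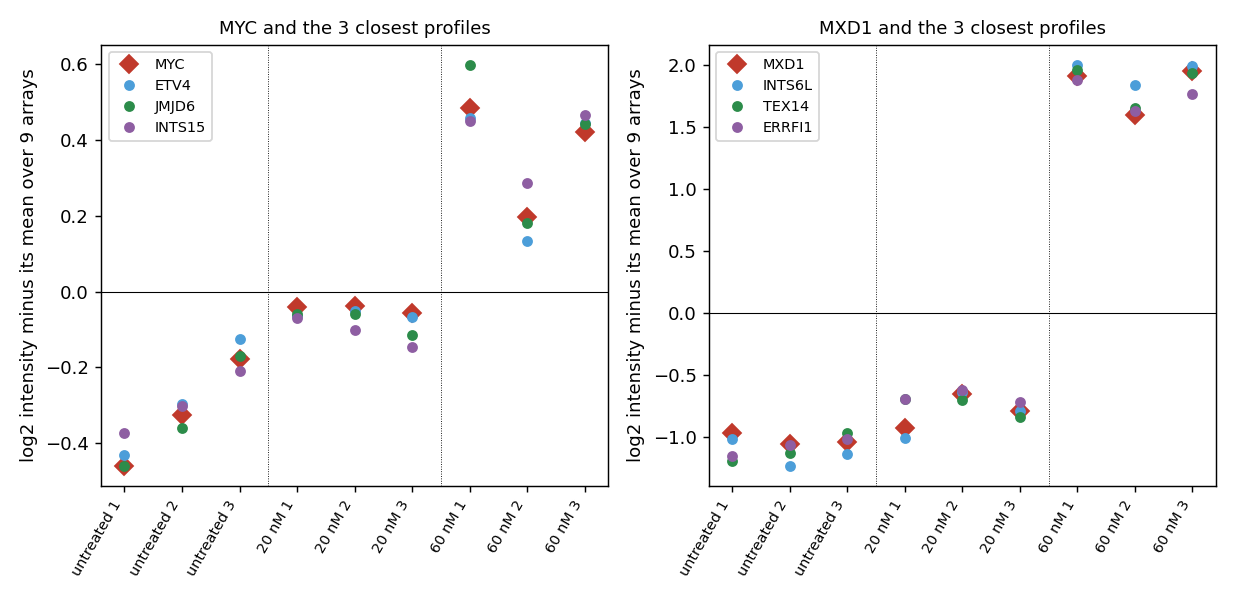
Log2 intensity minus its mean over 9 arrays (vertical axes) on each array (horizontal axes) for MYC with ETV4, JMJD6 and INTS15, left, and MXD1 with INTS6L, TEX14 and ERRFI1, right. The 20 nM arrays lie between the untreated and the 60 nM arrays for MYC, and close to the untreated arrays for MXD1.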

How the data were processed

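The authors deposited 1 table of linear intensities for 70523 probe sets on 9 arrays, made with RMA per the submitters' processing notes. Its version is not given in the sources used here, nor is a genome build, and whether a further transformation was applied is unknown. Values were set on a log2 scale with no constant. Of the probe sets, 23781 had 1 gene symbol in the platform annotation and 1543 several. Only sets with a single symbol were kept. For 479 genes with several sets the one with the highest mean was used. Gene numbers of 21497 probe sets matched RefSeq (GRCh38.p14), which changed 0 symbols and was used for chromosomes and promoters.

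All 9 arrays were fitted with limma 3.58.1 in R 4.3.3 (lmFit, eBayes without trend), a term per group, Benjamini-Hochberg threshold 0.05. In all, 4752 genes differed at 60 nM against untreated cells (1783 higher, 2969 lower), 5 at 20 nM against untreated cells and 4006 between the doses. The functions were tested on simulated data. The members, lists and tests were chosen with earlier results of these data known. By rule the text names the members, up to 3 genes of smallest p per list (4 for MYC targets) and the 3 closest profiles of MYC and MXD1. Alternatives were the replicate number as a block, each array left out, 3 scalings, log2(value + 16), genes above background, the mean of a gene's probe sets, trended and robust eBayes, and the 6 arrays compared. The chromosome score (5 gene-densest against 5 gene-poorest autosomes) and the fit without 2 arrays were added after seeing the data. Figures used matplotlib 3.10.9.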

Additional observations from a re-analysis of the deposited data

How the results depend on the processing

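Of 27 differences of members (9 genes, 3 comparisons), 3 were 0. Of the other 24, 10 never turned sign and stayed called or not called under all alternatives. These were 21 alternatives or, for 1 difference of a gene below background, 20. Called among the 10 were MYC at 60 nM against untreated cells, MXD1 at 60 nM against both other groups, and MLX between the doses. The rest were not called, and among them MXI1 and MNT at 20 nM fell to 0 with an array left out. Of 27 other genes named by rule, 23 kept direction and call at 60 nM against untreated cells. MXD1 at 60 nM against untreated cells ranged over 2.77 to 2.95 and MYC over 0.62 to 0.91, both called throughout. Calls lost under an alternative are given above with each gene named, and not for genes that are only counted in their lists. MAX between 60 nM and 20 nM was called with the chromosome score (0.23, limma adjusted p = 0.0110). With the number as a replicate block, limma called 3800 genes at 60 nM and 0 at 20 nM against untreated cells, 2857 between the doses and 2849 by the F test. Same-numbered arrays deviated with correlations of -0.52 to 0.08 over 9 pairs, other pairs at -0.42 to 0.49. Deviations within a group of 3 sum to 0, so this check cannot decide whether same-numbered arrays belong together.

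Genes called by limma at 20 nM were 5, of 1119 with an unadjusted p under 0.05. They were 0 with the block and with equal array medians, 16 after the hybridisation control shift, 8 among genes above background, 2 in the fit of 6 arrays, 15 with the chromosome score, 27 without untreated replicate 3 and 20 nM replicate 2, and 0 to 19 with single arrays left out. At 60 nM against untreated cells, 2248 were called after the hybridisation control shift (1147 higher, 1101 lower) and 2761 with the chromosome score, which gave 2218 by the F test. That shift moved the median of all genes by 0.29 at 20 nM against untreated cells and by -0.28 between the doses, and the share of calls that were higher was 51% at 60 nM against untreated cells (37.5% before), 18.2% between the doses (38.9% before) and 100% at 20 nM (60% before). With equal medians it was 31.8% and 33.1% for the comparisons of 60 nM with untreated cells and with 20 nM.

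Small differences turned sign. At 60 nM against untreated cells, quantile normalization gave -0.0199 for MYCN and -0.0111 for MYCL, equal medians gave -0.0245 for MYCN, -0.0145 for MYCL, -0.0216 for MXI1 and -0.000204 for MNT, and the chromosome score gave -0.0147 for MYCL. Between 60 nM and 20 nM, MYCL was at -0.0102 with quantile normalization, -0.00860 with equal medians, -0.256 after the control shift and -0.00358 with the score, MNT at -0.0135 with equal medians and -0.261 after the control shift, and MAX at -0.154 after that shift. MXD3 at 20 nM was at -0.00382 with equal medians. With single arrays left out, MYCL at 60 nM spanned -0.0144 to 0.0568 against both other groups, MXD3 -0.00119 to 0.00575 at 20 nM and -0.00575 to 0.00119 between the doses, MLX -0.128 to 0.106 at 20 nM against untreated cells, and MYCN -0.0160 to 0.0034 between the doses. The control shift and the equal medians each move all genes of a comparison by the same amount, which gives their turned signs. The cause of the others was not tested. Genes below background have no measured level here.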
